A study of Anguilla anguilla with 11 samples.

Results

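The genes described here sense oxygen and pass the signal on through the hypoxia-inducible factors (HIF). They were chosen by name and description, not by any measured value: a transcript of the table belongs to them if it is called hif1a, epas1, hif3a, hif1n, egln1, egln2, egln3, vhl or arnt, or if its description speaks of a hypoxia-inducible factor or of an EGL-9 homolog. By this rule 25 of the 45974 predicted transcripts were found, under 9 names, and the descriptions added no further name. They were measured in the European eel (Anguilla anguilla), in its rete mirabile, the bundle of arterial and venous capillaries that supplies the swimbladder. The study compared 5 yellow eels, the growing stage, with 6 silver eels, the stage that migrates to spawn, to find what changes in this tissue during silvering. All eels were wild fish from Lake Constance, held in freshwater for some days, female by the methods, and no label gives an age. In all of them the rete was flushed with heparinized saline until it was free of blood cells, and 1 polyA-selected, stranded RNA library was made per eel.

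Cells use HIF to match gene activity to oxygen. When oxygen is plentiful, the prolyl hydroxylases (egln1, egln2, egln3) modify the alpha subunits (hif1a, epas1, hif3a), and the protein of vhl then marks these for destruction. The asparagine hydroxylase hif1n keeps remaining alpha subunits from binding their coactivators. When oxygen is scarce these enzymes slow down, and an alpha subunit pairs with the beta subunit arnt and switches on genes of glycolysis, blood vessel growth and stress defense. This control acts mainly on the protein of the alpha subunits, which the RNA measured here does not show. The swimbladder behind the rete can hold oxygen at high partial pressure.

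A relative expression value here is the count of a transcript divided by the size factor of its library, which removes differences in sequencing depth. It was not divided by transcript length, so values compare eels within a transcript and do not rank transcripts. Assigned counts per library ran from 9360429 to 12438185. By the start of their titles the libraries fall into 2 sets. FG1835 holds 3 eels of each stage, FG1907 holds 2 yellow eels beside 3 silver ones, and no label says what a set stands for. Because the sets differed widely, the stage comparison of the oxygen-sensing transcripts is given within them as well. For the lists of related genes it is mostly given over both sets together. The silver eel library FG1907_02 had the lowest summed value of endothelial markers, 36649 against 52030 to 74832 in the other 10 libraries, and the stage comparisons with the set in the model or within FG1907, and the interaction of stage and set, are given without it too. Of the endothelial marker transcripts 18 of 22 had a mean above 50, and so had 18 of 36 of smooth muscle and pericytes. Of red cell markers 2 of 8 did, with summed values of 322 to 942. Leukocyte markers were above 50 in 12 of 17, with sums of 2377 to 5801, and epithelial markers in 11 of 37, with sums of 18492 to 26259. The library FG1907_02 also had the highest summed values of smooth muscle and pericyte markers, 155269, and of leukocyte markers, 5801.

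Of the 25 transcripts, 17 had a mean value above 50, 22 above 10 and 14 above 100. A count above 0 in every eel was found for 22. Best matches in other vertebrates were 57.3% to 91.87% similar. Several transcripts carry the same name, 9 for hif1a, 4 for egln1, 3 each for epas1 and arnt and 2 for egln2, and reads of closely related transcripts may be divided between them in a way that the counting decides, so their single levels are uncertain. Positions and lengths of the transcripts were not used here, so gene copies and pieces of a gene cannot be told apart.

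**Figure D1:**
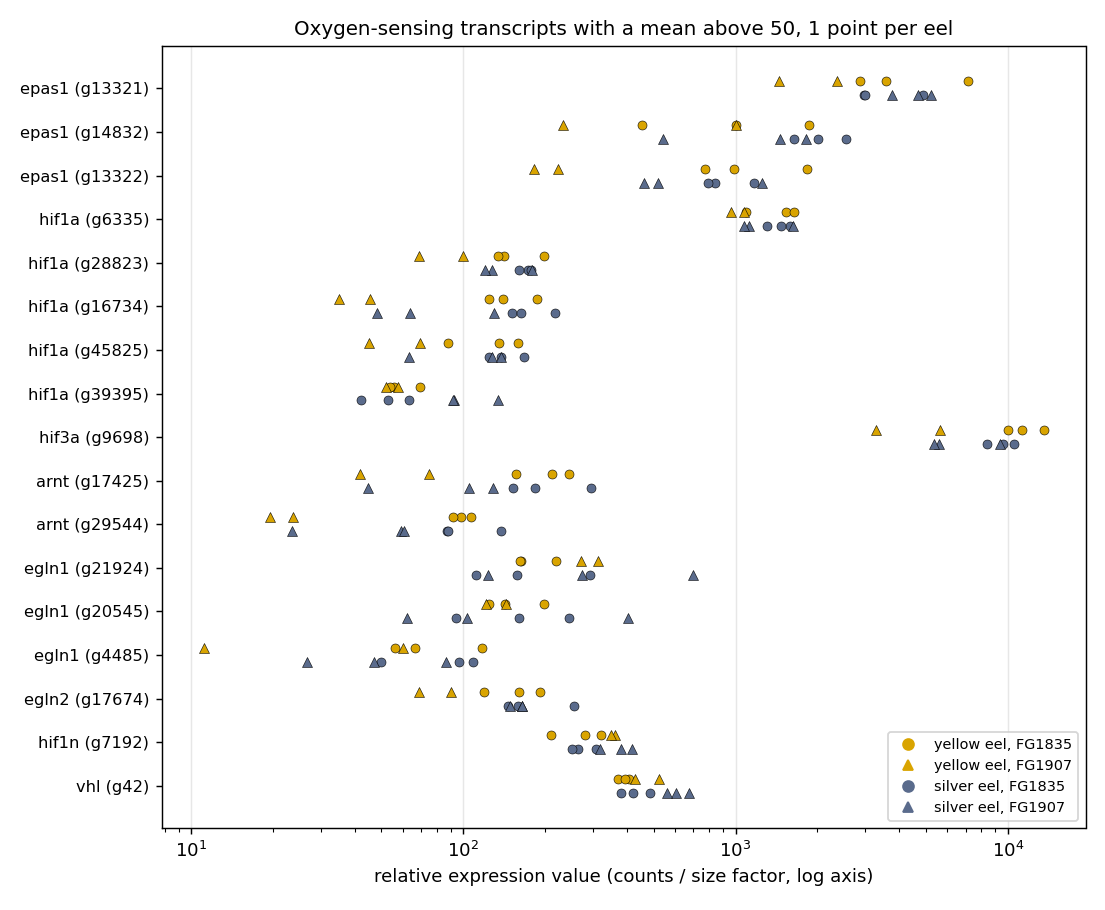
Relative expression value (counts over size factor, log axis) of the 17 transcripts with a mean above 50, with 1 point per eel, colored by stage and shaped by library set. Yellow and silver eels overlapped for all 17, and the 2 yellow eels of FG1907 (yellow triangles) held the lowest value of 12 of them. The share over all transcripts above 50 was not computed.

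Among the alpha subunits, hif3a (g9698), whose product in mammals includes forms that hold the other alpha subunits in check, had values of 13526, 11316 and 10011 in the yellow eels of FG1835 and 5642 and 3273 in those of FG1907. In the silver eels its values were 9569.8, 10523 and 8387 in FG1835 and 5576, 9351 and 5341 in FG1907. The 6 libraries of FG1835 thus lay high and 4 of the 5 of FG1907 low, with FG1907_02 between the values of FG1835, and the stages overlapped.

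3 transcripts were called epas1, the alpha subunit best known from endothelial cells of mammals. The transcript epas1 (g13321) had 7124, 2860.1 and 3568 in the yellow eels of FG1835 and 2364 and 1443 in those of FG1907, against 2952, 2981 and 4892 in the silver eels of FG1835 and 4699, 5209 and 3747 in those of FG1907. The highest value belonged to a yellow eel and so did the 3 lowest, so that yellow eels spanned the whole range and the stages overlapped. The transcript epas1 (g13322) had 1833, 772 and 987 in yellow and 841, 795 and 1166 in silver eels of FG1835, and 223 and 182 in yellow and 462, 1249 and 518 in silver eels of FG1907. Its lowest values were again those of the 2 yellow eels of FG1907, and it was also highest in the same yellow eel, FG1835_01. For epas1 (g14832) the values were 1857, 1005 and 455 in yellow and 2549, 1635 and 2016 in silver eels of FG1835, and 232 and 1002 in yellow and 1819, 1455 and 542 in silver eels of FG1907. Here 5 of 6 silver eels had 1455 or more and 4 of 5 yellow eels 1005 or less, but the silver eel FG1907_03 and the yellow eel FG1835_01 lay on the other side.

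The name hif1a, the alpha subunit found in nearly all cells, was carried by 9 transcripts, of which 5 were above 50. The transcript hif1a (g6335) held between 62.8% and 78.4% of the summed value of these 9 (counts, not divided by length) in every eel. Its values were 1529.9, 1094 and 1639 in the yellow eels of FG1835 and 959 and 1076 in those of FG1907, and 1584, 1307 and 1473 in the silver eels of FG1835 and 1623, 1122 and 1070.1 in those of FG1907. Eels differed little in it, with a highest value 1.71 times the lowest, and stages and sets overlapped.

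The other hif1a transcripts above 50 varied more between eels. For hif1a (g28823) the values were 141, 134 and 198 in yellow and 173, 160.4 and 178 in silver eels of FG1835, and 69.0 and 100.2 in yellow and 127, 178 and 119.8 in silver eels of FG1907. For hif1a (g16734) they were 139.9, 124 and 186 in yellow and 151, 218 and 162 in silver eels of FG1835, and 35.1 and 45.4 in yellow and 63.7, 129 and 48.2 in silver eels of FG1907. In both, the 2 yellow eels of FG1907 were the lowest of all, and in FG1907 only the silver eel FG1907_02 reached the values of FG1835. For hif1a (g45825) the values were 135, 87.7 and 159 in yellow and 138, 125 and 167 in silver eels of FG1835, and 45.2 and 69.6 in yellow and 127, 138 and 63.4 in silver eels of FG1907. For hif1a (g39395) they were 69.1, 55.6 and 53.6 in yellow and 53.0, 42.3 and 63.2 in silver eels of FG1835, and 52.0 and 57.5 in yellow and 134, 92.8 and 91.6 in silver eels of FG1907. This last transcript was highest in the 3 silver eels of FG1907, above all other libraries. The 4 hif1a transcripts below 50 ranged from 24.9 to 64.7 (g34468), 10.2 to 68.2 (g39881), 11.8 to 35.8 (g33347) and 4.33 to 39.4 (g31372).

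The beta subunit arnt, a partner with which alpha subunits bind DNA, had 2 transcripts above 50. For arnt (g17425) the values were 244, 157 and 212 in yellow and 152, 294 and 184 in silver eels of FG1835, and 41.8 and 75.1 in yellow and 129, 105 and 44.6 in silver eels of FG1907. For arnt (g29544) they were 98.4, 91.9 and 106 in yellow and 87.0, 138 and 87.8 in silver eels of FG1835, and 23.7 and 19.5 in yellow and 59.1, 60.5 and 23.5 in silver eels of FG1907. In both transcripts every library of FG1835 lay above every library of FG1907, and within each set the stages overlapped. The remaining arnt transcript (g43114) had at most 4.17 and was at 0 in 3 eels.

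The prolyl hydroxylase egln1, the main oxygen sensor of mammalian cells, had 3 transcripts above 50. For egln1 (g21924) the values were 163, 220.0 and 162 in yellow and 157, 112 and 293 in silver eels of FG1835, and 313 and 269.9 in yellow and 272, 699 and 123 in silver eels of FG1907. For egln1 (g20545) they were 124, 198 and 142 in yellow and 159.9, 94.3 and 245 in silver eels of FG1835, and 121 and 144 in yellow and 103, 404 and 62.3 in silver eels of FG1907. Both were highest in the silver eel FG1907_02 by a wide margin, and silver eels spanned the range of yellow eels on both sides. For egln1 (g4485) the values were 56.1, 66.6 and 117 in yellow and 49.98, 108 and 96.8 in silver eels of FG1835, and 59.9 and 11.1 in yellow and 26.6, 86.6 and 47.0 in silver eels of FG1907, again with overlapping stages. The fourth transcript (g10604) had at most 10.1.

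The related hydroxylase egln2 had a single transcript above 50, egln2 (g17674), with 160.2, 119 and 191 in yellow and 146, 256 and 158 in silver eels of FG1835, and 69.0 and 90.0 in yellow and 148, 165 and 164 in silver eels of FG1907. The silver eels were tightly grouped except for FG1835_05 with 256, and the lowest values were those of the yellow eels of FG1907. The transcript egln3 (g10603), whose RNA is itself raised by low oxygen in mammals, had a mean of 40.2 and ranged from 3.39 to 83.4. This was the widest spread of the 22 transcripts counted above 0 in every eel, with a highest value 24.6 times the lowest, and both stages held low and high eels.

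The asparagine hydroxylase hif1n (g7192) had 321, 279 and 210.0 in yellow and 265, 307 and 250.2 in silver eels of FG1835, and 361 and 349 in yellow and 319, 379 and 418 in silver eels of FG1907. For vhl (g42), the part of the ubiquitin ligase that recognizes hydroxylated alpha subunits, the values were 407, 370.0 and 393 in yellow and 419, 378 and 486 in silver eels of FG1835, and 524 and 427 in yellow and 604, 676 and 561 in silver eels of FG1907. Both ran opposite to arnt and hif3a, with FG1907 on the high side, and both overlapped between stages.

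The 17 transcripts above 50 differed in how steady they were. The SD of the log2 value over the 11 eels was 0.288 for hif1n, 0.289 for hif1a (g6335) and 0.295 for vhl, and only 12.3%, 12.5% and 13.3% of the 15070 transcripts above 50 had a smaller one. The largest SD of the 17 was that of epas1 (g14832) with 1.07, followed by epas1 (g13322) with 1.03, and 90.6% and 89.2% of these transcripts had a smaller SD. With the mean of each library set removed, 6.30% were steadier than hif1n and 7.11% than vhl, whereas the SD of arnt (g17425) fell from 0.93 to 0.55 and that of arnt (g29544) from 0.97 to 0.55.

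The main comparison asked whether the stages differ. In edgeR's quasi-likelihood test 22 of the 25 transcripts passed the filter on low counts, and the 3 left out were arnt (g43114), egln1 (g10604) and egln2 (g37290). With Benjamini-Hochberg adjustment over all transcripts 0 of the 22 passed an adjusted p of 0.05, and 0% of the 23981 transcripts tested did. At an unadjusted p under 0.01, the limit the study used, 0 of the 22 passed beside 99 of all transcripts (0.413%), and at an unadjusted p under 0.05 it was 0 beside 515 (2.15%). DESeq2 and limma also called 0 of them at an adjusted p under 0.05 and 0 at an unadjusted p under 0.05. Yellow and silver eels overlapped for all 17 transcripts above 50, as they did for all but 40 of the 15070 transcripts above this limit (0.265%).

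The largest stage difference was that of epas1 (g14832), a log2 difference of 0.86 (95% interval -0.18 to 1.90, adjusted p = 1.00 in edgeR) toward silver eels. It was followed by hif1a (g39395) with 0.45 (-0.23 to 1.14) and egln2 (g17674) with 0.44 (-0.18 to 1.07). The intervals were narrowest for vhl with 0.29 (-0.13 to 0.72), hif1a (g6335) with 0.10 (-0.34 to 0.55) and hif1n with 0.08 (-0.37 to 0.53), so that for hif1a (g6335) and hif1n the upper bound was a 1.46-fold and a 1.45-fold higher value in silver eels. For hif3a the log2 difference was -0.12 (-0.86 to 0.62), for epas1 (g13321) it was 0.22 (-0.54 to 0.99) and for arnt (g17425) 0.03 (-1.03 to 1.09), and the upper bounds were 1.54-fold, 1.99-fold and 2.13-fold. The log2 difference was above 0 in 19 of the 22 transcripts with a median of 0.27, against 12189 of 23981 and a median of 0.00 over all transcripts. This median fell to 0.13 without the silver eel FG1907_02 (17 of 22 above 0), to 0.13 without the yellow eel FG1907_04 (15 of 22), to 0.15 without the yellow eel FG1907_06 (15 of 22) and to 0.18 without the silver eel FG1835_06 (17 of 22). The transcripts of a name may share reads, the 22 share the same eels, and none of them passed the test, so this count describes the 11 libraries only.

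**Figure D2:**
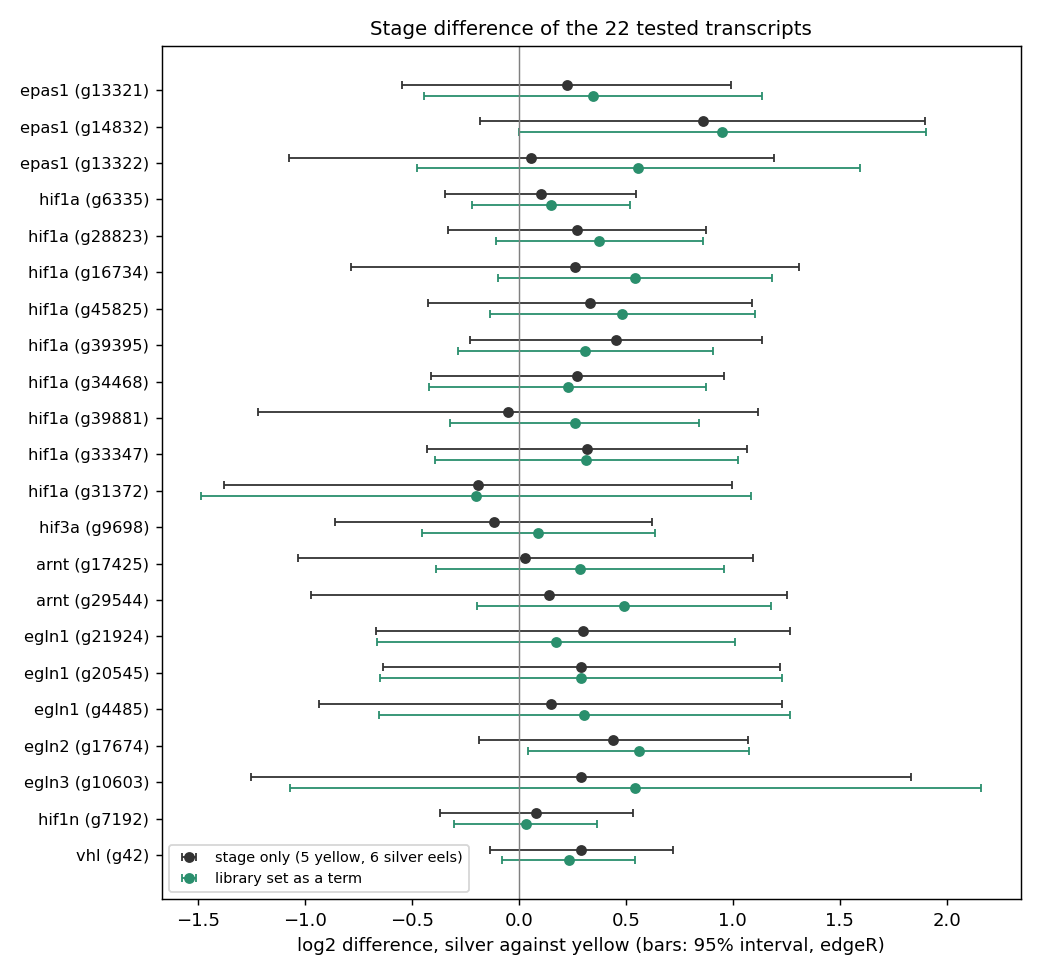
Log2 difference of silver against yellow eels for the 22 tested transcripts, with the stage alone (dark) and with the library set in the model too (green); bars are 95% intervals of the edgeR fit. With the stage alone the interval of every transcript held 0, and with the set as a term that of egln2 (g17674) did not, at an adjusted p of 1.00.

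When the model also held the library set, the median log2 difference of the 22 was 0.31, and 1 of them had an unadjusted p under 0.05, beside 4.06% of all transcripts. It was egln2 (g17674) with a log2 difference of 0.56 (0.05 to 1.07, adjusted p = 1.00 in edgeR). The value of epas1 (g14832) was 0.95 (0.00 to 1.90). Without FG1907_02 the same model gave 0.51 for egln2, which again was the 1 transcript with an unadjusted p under 0.05 beside 6.26% of all transcripts, and 0 of the 22 had an adjusted p under 0.05. The log2 difference of epas1 (g13322) was 0.56 with this library and 0.26 without it, and those of egln1 (g21924) and egln1 (g20545), which were highest in it, went from 0.18 and 0.29 to -0.20 and -0.21.

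The stages were then compared within each library set. Within FG1835 (3 yellow and 3 silver eels) 14 of the 22 log2 differences were above 0, beside 50.2% of all transcripts tested there. The median of the 22 was 0.04 and 0 had an unadjusted p under 0.05, beside 7.30% of all. Within FG1907 (2 yellow and 3 silver eels) all 22 were above 0, beside 53.8% of all transcripts tested there. Their median was 0.77 against 0.04 over all transcripts. For 3 of the 22 the unadjusted p of edgeR was under 0.05, beside 2.78% of all transcripts, at an adjusted p of 1.00. These were epas1 (g13322) with a log2 difference of 1.92 (0.68 to 3.15), epas1 (g13321) with 1.29 (0.37 to 2.20) and egln2 (g17674) with 1.02 (0.10 to 1.94). In FG1835 the same epas1 transcripts had -0.37 (-1.10 to 0.37) and -0.33 (-1.15 to 0.48). Within FG1907 without FG1907_02 (2 yellow and 2 silver eels) 20 of the 22 were above 0, with a median of 0.54 against 0.01 over all transcripts, and the same 3 transcripts had an unadjusted p under 0.05, beside 3.98% of all. The log2 difference of epas1 (g13322) was then 1.26 (0.50 to 2.02, adjusted p = 0.696 in edgeR), that of epas1 (g13321) 1.14 (0.22 to 2.06) and that of egln2 (g17674) 0.95 (0.00 to 1.90), while egln1 (g21924) and egln1 (g20545) turned to -0.56 and -0.69.

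**Figure D3:**
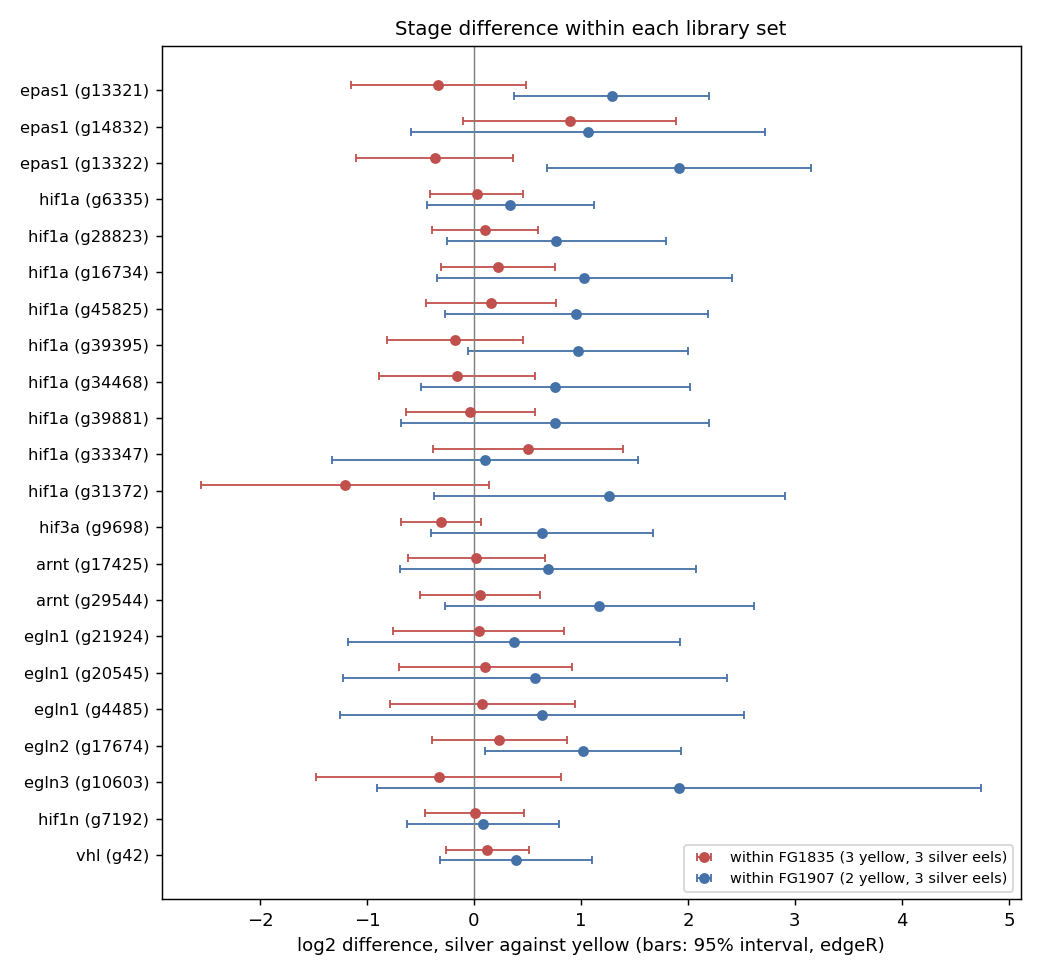
Log2 difference of silver against yellow eels within FG1835 (red) and within FG1907 (blue) for the 22 tested transcripts; bars are 95% intervals of the edgeR fit. The blue points all lie right of 0 and run from 0.09 to 1.92, with wide bars, while the red points lie on both sides of 0.

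The difference between these effects was tested as an interaction of stage and set in edgeR. Adjusted over all transcripts 0 of the 22 passed, as did 0% of the 23981. An unadjusted p under 0.05 was found for 4 of them, beside 1185 of all transcripts (4.94%). They were epas1 (g13322) with a difference of the log2 effects of 2.28 (0.87 to 3.68), epas1 (g13321) with 1.62 (0.41 to 2.82), hif1a (g31372) with 2.46 (0.39 to 4.52) and hif1a (g39395) with 1.14 (0.16 to 2.13), all at an adjusted p of 0.920 in edgeR. DESeq2 called 23 of 39364 transcripts and 0 of the 25 members, whose smallest adjusted p was 0.213. There 5 members had an unadjusted p under 0.05, beside 1599 of all transcripts. In edgeR the difference was above 0 in 21 of the 22, beside 53.9% of all transcripts, with a median of 0.78 against 0.06. Without FG1907_02 it was above 0 in 18 of the 22, beside 50.4% of all transcripts, with a median of 0.54 against 0.01. The same 4 transcripts then had an unadjusted p under 0.05, and epas1 (g13322) had 1.64 (0.57 to 2.71, adjusted p = 0.872 in edgeR). All 22 rest on the same 2 yellow eels of FG1907, and transcripts of a name may share reads. These 2 eels held the lowest value of 12 of the 17 transcripts above 50 and the highest value of 0. How often this is so over all transcripts above 50 was not computed, so it may not be particular to these genes.

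Between the library sets edgeR called far more transcripts than between the stages. With the stage in the model, 5 of the 22 transcripts were lower in FG1907 at an adjusted p under 0.05 beside 4565 of all 23981 (19.0%), and 2 were higher beside 4685 (19.5%). The median log2 difference of FG1907 against FG1835 was -0.55 over the 22 and 0.03 over all transcripts, and without the yellow eel FG1907_04 it was -0.31 over the 22. In this bulk tissue fewer cells of a type and less RNA per cell cannot be told apart, and since the sets are not explained by the labels, technical and biological differences between them cannot be told apart either.

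Both arnt transcripts were lower in FG1907, arnt (g29544) by a log2 difference of -1.57 (-2.27 to -0.87, adjusted p = 0.00320 in edgeR) and arnt (g17425) by -1.44 (-2.14 to -0.75, adjusted p = 0.00443), from a mean of 207 ± 54.8 (SD, n = 6) to 79.1 ± 37.9 (SD, n = 5). They were the 2 of 17 transcripts above 50 whose library sets did not overlap, beside 3570 of 15070 (23.7%). Of the alpha subunits, hif1a (g39881) had -1.80 (-2.40 to -1.19, adjusted p = 0.000694), hif1a (g16734) -1.46 (-2.11 to -0.80, adjusted p = 0.00327) and hif3a -0.88 (-1.43 to -0.33, adjusted p = 0.0165). The mean of hif3a was 10556 ± 1754 (SD, n = 6) in FG1835 and 5837 ± 2195 (SD, n = 5) in FG1907. The transcript with most hif1a reads, g6335, had -0.33 (-0.70 to 0.04, adjusted p = 0.145) and did not pass, and epas1 (g13322) with -1.26 (-2.30 to -0.21) just missed the threshold at an adjusted p of 0.0557 and passed it in 7 of 18 alternatives.

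The 2 transcripts higher in FG1907 were vhl with a log2 difference of 0.41 (0.10 to 0.72, adjusted p = 0.0379) and hif1n with 0.42 (0.08 to 0.75, adjusted p = 0.0485). These calls were narrow. With upper quartile scaling, which moved the median of all transcripts from 0.03 to -0.11, both were lost (adjusted p 0.157 and 0.165 in edgeR). The split of all calls then went from 4685 higher and 4565 lower to 3601 and 5416. Both calls were also lost with a filter at 50 and with no filter, and that of hif1n with median-of-ratios scaling. Over the 7 alternatives that kept all libraries, vhl passed in 4 and hif1n in 3. Leaving out 1 library at a time, vhl passed in 5 of 11 fits, with log2 differences of 0.35 to 0.49 and an adjusted p up to 0.0951, and failed without FG1835_02, FG1835_03, FG1835_04, FG1835_05, FG1907_01 or FG1907_04. The call of hif1n held only without FG1835_01 or without FG1907_01, with log2 differences of 0.36 to 0.48 over the 11 fits and an adjusted p up to 0.101. The call of hif3a was lost without the yellow eel FG1907_06 (adjusted p = 0.0541), and those of arnt and of hif1a (g16734) and (g39881) passed in all 11 fits.

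**Figure D4:**
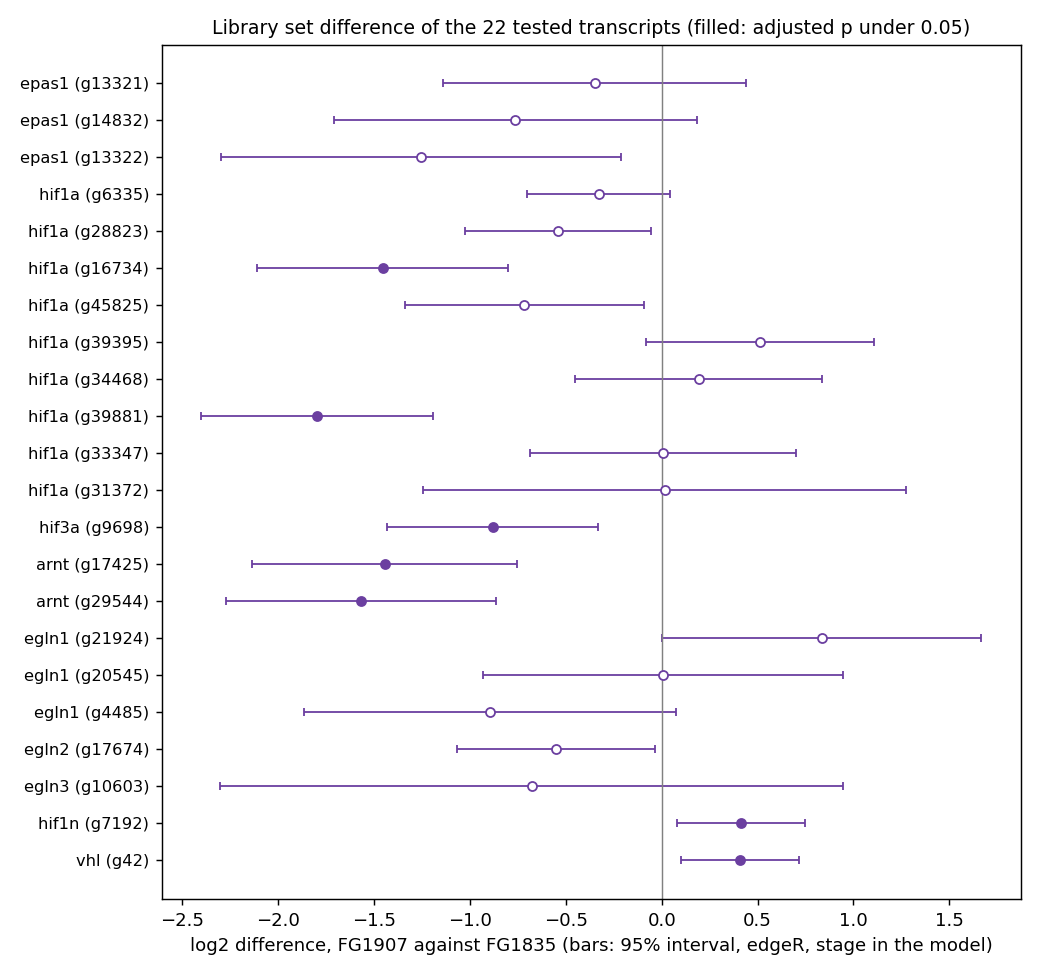
Log2 difference of FG1907 against FG1835, with the stage in the edgeR model, for the 22 tested transcripts; bars are 95% intervals and filled points have an adjusted p under 0.05. The filled points on the left are hif1a (g39881), arnt (g29544), hif1a (g16734), arnt (g17425) and hif3a, from -1.80 to -0.88, and those on the right are hif1n and vhl at 0.42 and 0.41.

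Markers of some cell types differed between the library sets as well. Their counts stand beside 19.0% of all transcripts lower and 19.5% higher in FG1907. The count of leukocyte markers higher there lay near its share, and the 4 tested red cell transcripts are too few for a comparison. Of the tested endothelial marker transcripts 8 of 19 were lower and 2 higher in FG1907 (median log2 difference -0.66), and of those of smooth muscle and pericytes 10 of 22 were lower and 1 higher (median -0.68). Of epithelial markers 5 of 14 were lower and 2 higher (median -0.40), of leukocyte markers 0 of 15 were lower and 3 higher (median 0.26), and of red cell markers 1 of 4 was lower and 0 higher (median 0.36). The summed endothelial value ranged from 56578 to 71013 in FG1835 and from 36649 to 74832 in FG1907, and that of smooth muscle and pericytes from 112352 to 133254 and from 63285 to 155269. Between the stages edgeR called 0 of these at an adjusted p under 0.05. An unadjusted p under 0.05 was found for 1 transcript each of the endothelial, smooth muscle and pericyte, epithelial and leukocyte lists. Of the 4 red cell transcripts 0 had it, and of all transcripts 2.15%. The part of the markers in the results was not tested.

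Ratios between transcripts that share a name do not depend on the size factor of a library. The ratio of epas1 g13321 to g13322 was 3.51 to 4.20 in the 6 eels of FG1835, and in FG1907 it was 10.6 and 7.94 in the yellow and 10.2, 4.17 and 7.23 in the silver eels. Only the silver eel FG1907_02 had a ratio inside the range of FG1835. The ratio of egln1 g21924 to g20545 was 0.98 to 1.31 in FG1835 and 1.73 to 2.64 in FG1907, without overlap, although neither transcript passed the test between the sets (adjusted p = 0.103 and 0.991). For each of these names 1 pair was taken, for epas1 without g14832, whose mean of 1324 was above the 821 of g13322. Ratios of other pairs, also of these names, were not computed, so how often ratios part the sets is not known. Of single transcripts above 50, which are a different measure, 23.7% did not overlap between the sets. The ratios of the arnt transcripts g17425 to g29544 (1.71 to 2.48 and 1.74 to 3.86) and of hif1a g6335 to g28823 (8.15 to 10.9 and 6.29 to 13.9) overlapped between the sets.

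**Figure D5:**
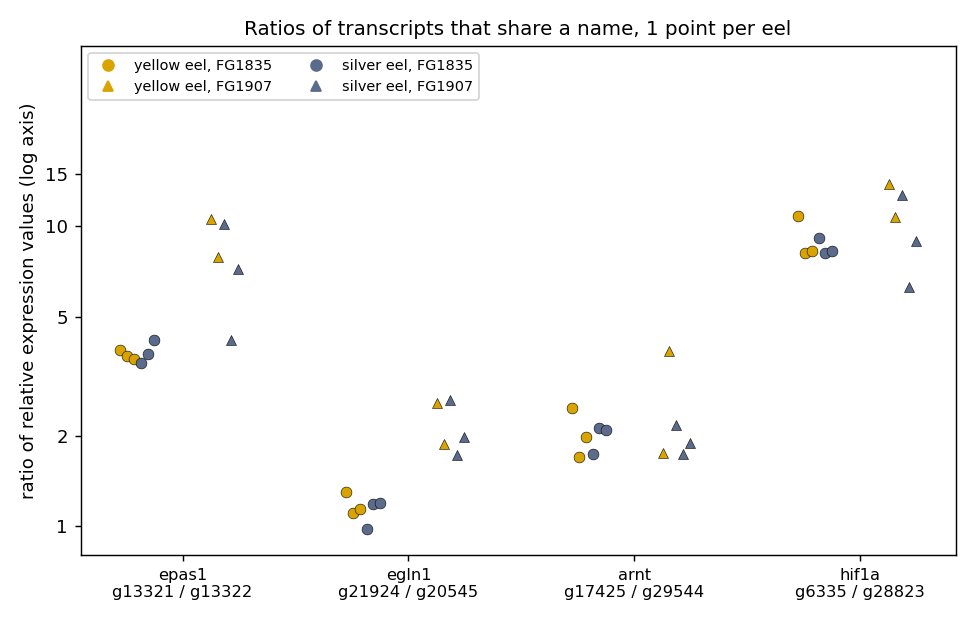
Ratio of relative expression values of 2 transcripts that share a name, with 1 point per eel on a log axis, colored by stage and shaped by library set. For egln1 the circles (FG1835) lie at 0.98 to 1.31 and the triangles (FG1907) at 1.73 to 2.64, and for epas1 4 of 5 triangles lie at 7.23 or above.

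Genes around the pathway were followed in 7 lists, of partners, of the VHL ligase, of coactivators and chaperones, of other oxygen-dependent hydroxylases and of target genes. In edgeR 0 of their transcripts passed an adjusted p of 0.05 between the stages. DESeq2 called 1 of 73 glycolytic transcripts, higher in silver eels, at an adjusted p of 0.000939, and 0 in the other lists. In edgeR the median log2 difference of each list lay between -0.03 and 0.09 where that of all transcripts was 0.00. At an unadjusted p under 0.05 there were 2 of 18 partners, 0 of 7 transcripts of the ligase, 1 of 35 coactivators and chaperones, 1 of 71 other hydroxylases, 4 of 62 glycolytic, 3 of 25 vascular and 2 of 27 stress targets. Of all transcripts it was 2.15%. The coactivator and stress lists had the same smallest p (0.0278 in edgeR) at the same log2 difference of -1.18, so a transcript can count in 2 lists. At an unadjusted p under 0.01 there were 2 in all, beside 0.413% of all transcripts. Both were higher in silver eels and are named here after their values were seen.

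The first of these was angl4 (g1879), an inhibitor of lipoprotein lipase and a known HIF target in mammals. The study had already listed angl4 among genes with an unadjusted p under 0.01 in DESeq, from the same libraries. By its adjusted p no gene of that list differed. Its values were 702, 721 and 521 in yellow and 1599, 1971 and 1427 in silver eels of FG1835, and 735 and 1149 in yellow and 1488, 1087 and 2920.1 in silver eels of FG1907. Only the yellow eel FG1907_06 and the silver eel FG1907_02 overlapped, and the log2 difference of 1.18 (SE 0.28) had an adjusted p of 1.00 in edgeR. The other was the low transcript enoa (g22092) of the glycolytic enzyme alpha-enolase, with 2.65 ± 1.96 (SD, n = 5) in yellow and 38.4 ± 31.3 (SD, n = 6) in silver eels and an adjusted p of 0.967 in edgeR. Its mean of 22.2 is under the limit of 50. Within FG1907 its log2 difference was 4.12, and within FG1835 it was not among the transcripts tested.

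The 3 transcripts of each list with the highest relative expression value had these values (mean ± SD over 5 yellow and then 6 silver eels). They were picked by counts not divided by length, so their order does not rank expression. Among the partners, ahr (g6964), the dioxin receptor that also pairs with arnt, had 3683 ± 799 and 3684 ± 995, the second receptor transcript ahr (g2015) had 877 ± 601 and 979 ± 584, and the arnt paralog arnt2 (g968) had 1025 ± 122 and 1199 ± 369. Between the library sets arnt2 was higher in FG1907 (log2 difference 0.46, adjusted p = 0.0379 in edgeR), and both ahr transcripts were lower like arnt (-0.57 and -1.89, adjusted p = 0.0150 and 0.000903). In the ligase that contains vhl, the adaptor elob (g4006) had 979 ± 113 and 1015 ± 220, eloc (g4095) had 419 ± 78.8 and 436 ± 62.0, and the ring protein rbx1 (g13428) had 361 ± 150 and 332 ± 91.6. Of the 7 tested transcripts of this ligase 3 were higher in FG1907, rbx1 among them (0.77, adjusted p = 0.00330 in edgeR), and 0 were lower. Of the 18 tested partners 4 were higher and 5 lower. These counts stand beside 19.5% of all transcripts higher and 19.0% lower.

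Of the chaperones and regulators, hs90b (g11574), the heat shock protein that folds alpha subunits, had 98511 ± 28642 and 127305 ± 38623. The scaffold protein gblp, which in mammals can send hif1a protein to degradation, had 24754 ± 11392 and 25371 ± 10763 (g22390) and 4415 ± 2061 and 4146 ± 2458 (g4690). Other hydroxylases that use oxygen were led by the histone demethylase kdm6b (g12180) with 8882 ± 2751 and 10955 ± 3493 and by the collagen hydroxylases plod2 (g2917) with 5905 ± 1400 and 6115 ± 2068 and p4ha1 (g4460) with 2698 ± 502 and 2791 ± 791. 0 of these 6 passed the test between the stages, with log2 differences of -0.09 to 0.36 at an adjusted p of 1.00 in edgeR. Between the library sets gblp (g22390) and gblp (g4690) were higher in FG1907 (log2 difference 0.85 and 1.00, adjusted p = 0.0110 and 0.00756 in edgeR), and so were plod2 (0.53, adjusted p = 0.0404) and p4ha1 (0.53, adjusted p = 0.0153), while kdm6b was lower (-0.76, adjusted p = 0.00691).

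Of the glycolytic targets, f263 (g10727), which makes the activator of phosphofructokinase, had 9419.5 ± 4398 and 11201 ± 7719, aldoa (g21958), an aldolase, had 6097 ± 1637 and 4960 ± 2311, and pdk2 (g8428), which slows pyruvate oxidation, had 3517 ± 1061 and 3666 ± 1240. Vascular targets were led by ibp3 (g24553), which binds insulin-like growth factors, with 7518 ± 4870 and 6749 ± 5645, and by the angiopoietin receptor tie2 with 5105 ± 1518 and 5700 ± 2863 (g1122) and 3327 ± 993 and 3407 ± 1403 (g4749). Stress targets were led by txnip (g17709), which binds thioredoxin, with 6427 ± 1379 and 6659 ± 969, by ddit4 (g5655), which lowers mTOR activity, with 3853 ± 3062 and 3497 ± 2629, and by bnip3 (g6543), which takes part in the removal of mitochondria, with 2242 ± 318 and 3069 ± 654. The log2 difference of bnip3 was 0.44 (SE 0.20, unadjusted p = 0.0435, adjusted p = 1.00 in edgeR), with 0.41 in FG1835 and 0.50 in FG1907. Between the library sets f263 (-1.53, adjusted p = 0.0305), ibp3 (-1.81, adjusted p = 0.00586), tie2 (g4749, -0.82, adjusted p = 0.0464) and ddit4 (-1.55, adjusted p = 0.00816) were lower in FG1907. Over the lists, 10 of 62 glycolytic, 4 of 25 vascular and 5 of 27 stress targets were lower there, beside 19.0% of all transcripts, and 14, 3 and 2 were higher, beside 19.5%.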

How the data were processed

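RNA of rete mirabile tissue was sequenced for 5 yellow and 6 silver eels, 1 library per eel. By the submitters' processing notes and the methods, the authors aligned reads with TopHat2 2.0.13, filtered with SAMtools 1.2, counted fragments per predicted transcript of the draft eel genome with HTSeq 0.6.1p1 and ran DESeq on them. Raw counts per library stand in the deposited table. The base means are a signal the authors made by dividing counts by size factors, recomputed here to within 0.0107%. Similarity to the best match is deposited as a fraction and printed as a percent. Fold changes and p-values of the authors' own comparison were not used. The column FG1935_03 was taken to be FG1835_03, since no other title lacks a column. The extraction text speaks of gas gland tissue, the tissue label and the methods of rete mirabile, which was followed. The methods name 2 sequencers, with paired-end or single reads, but not which library ran on which.

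Members were found by name and description and lists by gene name, with earlier results of these data known. Relative expression values are counts over median-of-ratios size factors, with a limit of 50 (10 and 100 as alternatives), and a pseudocount of 1 was added before log2 SDs. Differences came from the quasi-likelihood test of edgeR 4.0.16 in R 4.3.3 over the whole table, after filterByExpr and TMM scaling, with p-values adjusted by Benjamini-Hochberg and called under 0.05, for stage alone, for library set with stage in the model and for their interaction. DESeq2 1.42.0, limma 3.58.1, other scalings and filters, robust estimation, the set as a term, each set alone and each library left out were alternatives, and the set term without FG1907_02, FG1907 alone without it and the interaction with each library left out were added after seeing the data. Intervals cover 95% and use the F statistic of each log2 difference. The fits were also run on simulated counts with known changes. The simulation of the stages held no difference between the library sets, so it does not show how well stage differences are found in these data. Named were all members, the 3 highest transcripts of each list and, for likeness of pattern, the 3 nearest transcripts of the highest member of each role. Tables and figures used Python 3.11.15, numpy 2.4.6, pandas 2.3.3 and matplotlib 3.10.9. Sequences, proteome values and transcript lengths were not used here.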

Additional observations from a re-analysis of the deposited data

Results flagged for a closer look

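Each stage of each named transcript was searched for an eel far from the others of its stage. Of 80 such groups 8 held one, and all 8 were silver eels of 3 libraries. The rule is set to flag about 1 in 20 groups of independent, normally distributed values. The values here were not on a log scale, and the groups share eels and transcripts of a name. The 8 can therefore not be set against that rate. In the silver eel FG1907_02 egln1 (g21924) reached 699 against 112 to 293 in the other silver eels, and the endothelial receptor tie2 (g4749) was at 771 against 3283 to 4690.1. In FG1835_05 egln2 (g17674) was at 256 against 146 to 165 and ibp3 (g24553) at 17367 against 1733 to 7083. In FG1907_03 the chaperone hs90b (g11574) was at 199978 against 100489 to 136299, gblp (g22390) at 47051 against 18880 to 22829, gblp (g4690) at 9082 against 2809 to 4013 and pdk2 (g8428) at 1276 against 3698 to 4809. No yellow eel stood apart in this way, and no stage difference of a member differed between the library sets at an adjusted p under 0.05.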

How the results depend on the processing

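In no alternative did a member differ between the stages at an adjusted p under 0.05. Of all transcripts 25 did in DESeq2 (1 of them a glycolytic target), 2 with the set term without FG1907_02 and 0 to 1 with a library left out. The number of transcripts with an unadjusted p under 0.01 was 99, and 305 in DESeq2, 229 without a filter, 448 in FG1835 alone, 196 with the set as a term, 377 with the set term without FG1907_02 and 275 in FG1907 alone without FG1907_02. Members with an unadjusted p under 0.05 numbered 3 in FG1907 alone, with or without FG1907_02 (2.78% and 3.98% of all transcripts), 1 with the set term, with or without FG1907_02 (4.06% and 6.26%), and 0 to 2 with a library left out. Of the members above 50, the stage difference (log2) turned in FG1835 alone for epas1 (g13321, -0.33), epas1 (g13322, -0.37) and hif1a (g39395, -0.18), and for hif3a in limma (0.0104), in FG1907 alone (0.63) with the set term (0.0926) and in FG1907 alone without FG1907_02 (0.28). With the set term without FG1907_02 it was -0.20 for egln1 (g21924) and -0.21 for egln1 (g20545), and in FG1907 alone without that library -0.56 and -0.69. With a library left out it ran from -0.19 to 0.63 for epas1 (g13322), -0.32 to 0.10 for hif3a, -0.0294 to 0.146 for hif1n, -0.26 to 0.30 for arnt (g17425), -0.10 to 0.36 for arnt (g29544), -0.24 to 0.46 for egln1 (g21924), -0.14 to 0.47 for egln1 (g20545) and -0.12 to 0.51 for egln1 (g4485). The difference of the stage effects between library sets, with a library left out (also chosen after seeing the data), ran from -0.55 to 1.58 for epas1 (g14832), -0.0847 to 0.212 for hif1n (g7192), -0.614 to 0.817 for egln1 (g21924), -0.797 to 0.869 for egln1 (g20545) and -0.215 to 2.18 for egln1 (g4485). For the interaction 23 of all transcripts were called in DESeq2 and 2 with no filter, with 0 members in each. Between the library sets 7 members were called, 4 with a filter at 50 and 5 to 10 with a library left out. The log2 difference between library sets of egln1 (g20545) was -0.0589 with the filter at 50, -0.19 in limma, -0.11 with upper quartile scaling and -0.61 to 0.22 with a library left out. The median log2 difference of partners moved to 0.22 in FG1907, of stress targets to 0.38 in FG1835 and of vascular targets to 0.37 in FG1907. The causes were not tested.

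With 5 and 6 eels the median standard error of the stage difference was 0.39 (log2) over the 22 tested members, so small differences were not detectable here. FG1907 holds 2 yellow eels, so its stage differences rest on these. How reads were divided between transcripts of a name was not tested. No paired analysis was possible, since the yellow and the silver eels were different fish and no label pairs them.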

Other observations

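For 1 member of each role, the named transcripts with the most similar profile were sought among 13216 with a mean above 50. The member was the one with the highest value, which is not divided by length. The measure was the root-mean-square difference of the log2 values, centred within each library set, over the 11 libraries, where a smaller value is more alike. For hif3a the nearest was gpdm (g5606), mitochondrial glycerol-3-phosphate dehydrogenase, at 0.0859 where the median candidate was at 0.512, and then mint (g27532) at 0.138 and plcg1 (g1590) at 0.139. For hif1n the nearest were srp54 (g4797), of the signal recognition particle, at 0.0873, ern1 (g19369) at 0.0982 and mpp6 (g1753) at 0.104, against a median of 0.379. For vhl they were k1109 (g44220) at 0.106, morc3 (g4932) at 0.109 and terf2 (g20705), which binds telomeres, at 0.114, against 0.396. The profiles of egln1 (g21924) and arnt (g17425) had no neighbour as close: kld8b (g1386) at 0.234 and zn180 (g16452) at 0.233 came first, against medians of 0.738 and 0.625. These 2 also varied more within the library sets, with a log2 SD of 0.69 and 0.55. It was 0.19 for hif1n, 0.20 for vhl and 0.40 for hif3a. The measure is not scaled by this spread, so distances of steady and of varying transcripts are not comparable.

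Summed over the transcripts of a name, vhl varied least, with a highest value 1.83 times the lowest over the 11 eels, before hif1a with 1.95 and hif1n with 1.99. The sums of egln2, epas1 and hif3a varied 3.80, 4.12 and 4.13 times, those of egln1 and arnt 5.10 and 6.46 times, and egln3 24.6 times. The sum of egln1 was 1197 in the silver eel FG1907_02 and 235 to 640 in the other 10 eels.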
